A study of Mus musculus with 31 samples.

Results

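The miR-99, miR-100 and miR-125 families were examined in small RNA-seq of mouse embryonic stem cells (mESCs), because their genes lie beside let-7 genes. Members were the miRNAs of the deposited table whose names start with miR-99a, miR-99b, miR-100, miR-125a or miR-125b. This rule found 5 of the 507 listed miRNAs: miR-99b-5p, miR-99b-3p, miR-125a-5p, miR-125a-3p and miR-125b-1-3p. miR-99a, miR-100 and the 5p arm of miR-125b were not analysed here. The question was whether these neighbours of let-7 changed with let-7.

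Small RNAs were sequenced in 16 libraries, 4 for each of 4 genotypes. The cells all derive from the ES-E14TG2a line, were grown on gelatin and, for the profiling, in 2i + Lif medium, which holds mESCs in the undifferentiated state. WT cells were compared with CLIPΔ cells, which lack, on both alleles, the binding site of the RNA-binding protein Trim71 in the 3′UTR of *Ago2* mRNA. *Ago2* encodes an Argonaute protein, which holds mature miRNAs. *Ago2* KO cells carry a deletion of *Ago2*, and *Ago2* KO/CLIPΔ cells carry that deletion together with the loss of the site. The mutants were made with CRISPR/Cas9, the labels name no clone, and per the study the cells it calls WT carry a FLAG tag on Trim71, as do the lines edited from them. The labels call the libraries biological replicates without naming separate cultures, so p-values measure the spread between these libraries. In the RNA-seq of the same genotypes, *Ago2* mRNA was at 28.2 and 21.6 TPM in the WT, 27.3 and 20.3 TPM in CLIPΔ, and 1.51 to 2.87 TPM in the 8 libraries of the *Ago2* KO genotypes. All 7 listed pluripotency markers (8 were looked up) were at 56.4 TPM or more in every RNA-seq library, and the 3 listed fibroblast genes (of 5) summed to at most 3.73 TPM.

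miRNAs are cut from hairpins in long primary transcripts, and a hairpin can give a mature miRNA from its 5′ arm (5p) and from its 3′ arm (3p). Mammalian genomes hold let-7 genes beside genes of the miR-99/100 and miR-125 families, and the hairpins of such a cluster can come from 1 transcript. In mESCs, Lin28 proteins block the maturation of let-7, while miR-125 is the vertebrate relative of *lin-4*, which acts with let-7 in the timing of worm development. miR-99 family members are known to repress *Mtor*, and miR-125 to repress *Lin28a*.

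The mature sequences of the members and of let-7e, from RefSeq on GRCm38.p6, are shown to give the seeds, the bases 2 to 8 in capitals, with which a miRNA recognises its targets.
miR-99b-5p: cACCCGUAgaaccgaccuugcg
miR-99b-3p: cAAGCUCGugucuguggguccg
let-7e-5p: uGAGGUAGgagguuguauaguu
let-7e-3p: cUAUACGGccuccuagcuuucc
miR-125a-5p: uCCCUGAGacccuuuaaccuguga
miR-125a-3p: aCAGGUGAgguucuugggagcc
miR-125b-1-3p: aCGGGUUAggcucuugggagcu
All 7 seeds differ, so the let-7e arms and the members have no seed in common. Among the other listed miRNAs with a RefSeq sequence, miR-351-5p has the seed of miR-125a-5p, and 8 have that of let-7e-5p (the other let-7 miRNAs and miR-98-5p). No other listed miRNA has the seed of any other member.

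The first 6 of these arms come from 1 cluster on the plus strand of chromosome 17. *Mir99b* lies at chr17:17830188-17830257, *Mirlet7e* at chr17:17830352-17830444 and *Mir125a* at chr17:17830812-17830879, a span of 692 bp. The hairpins lie inside *Spaca6*, a protein-coding gene of the same strand. *Mir99b* and *Mirlet7e* are intronic in its annotated transcripts that span them, and *Mir125a* overlaps an exon of 1 of 3. miR-125b-1-3p comes from chr9:41581926-41582002 on the plus strand, 45114 bp downstream of *Mirlet7a-2*, and both are intronic in the non-coding gene 3110039I08Rik. The hairpin of miR-125b-1-3p also overlaps an exon of Gm28119, an annotated sense-intronic transcript. The sequence of let-7a-5p is shared by more than 1 locus, so its reads cannot be assigned to this one.

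Values are TPM rescaled to the same total per library, a unit that corrects for mature length. Of the 507 miRNAs, 442 matched a RefSeq sequence, 15 of them with more than 1 locus. The reads behind their values, inferred from the steps between low values, numbered 5232466 to 8117122 in the WT libraries and 2989610 to 7597245 in the CLIPΔ libraries. They numbered 783645 to 1004104 in the *Ago2* KO and 831163 to 1259728 in the *Ago2* KO/CLIPΔ libraries. The columns of the WT and CLIPΔ libraries also carry letters and those of the *Ago2* KO genotypes numbers, so the *Ago2* genotype cannot be told apart from the set and depth of the libraries. WT library D stood apart from the other WT libraries in miR-99b-5p, at 11018 TPM against 6037 to 6768 TPM, and tests of miR-99b-5p against the WT are also given without it.

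miR-99b-5p was the most abundant member in every genotype, with 7489 ± 2375 TPM (SD, n = 4) in the WT. In the WT, miR-125a-5p followed at 751.1 ± 60.0 TPM, then miR-99b-3p at 392 ± 45.6, miR-125a-3p at 183 ± 35.9 and miR-125b-1-3p at 61.2 ± 37.3 TPM (SD, n = 4 each). No neighbours in this order overlapped among the WT libraries, and the order was the same in CLIPΔ, also without overlap. In *Ago2* KO the order was miR-99b-5p, miR-125a-5p, miR-99b-3p, miR-125b-1-3p and miR-125a-3p, where the first pair and the last pair overlapped. Together the 5 members made up 0.888% ± 0.237 of miRNA values in the WT and 1.43% ± 0.353 in CLIPΔ (SD, n = 4 each), while the let-7 and miR-98 rows made up 0.720% ± 0.377 and 6.53% ± 0.589.

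**Figure D1:**
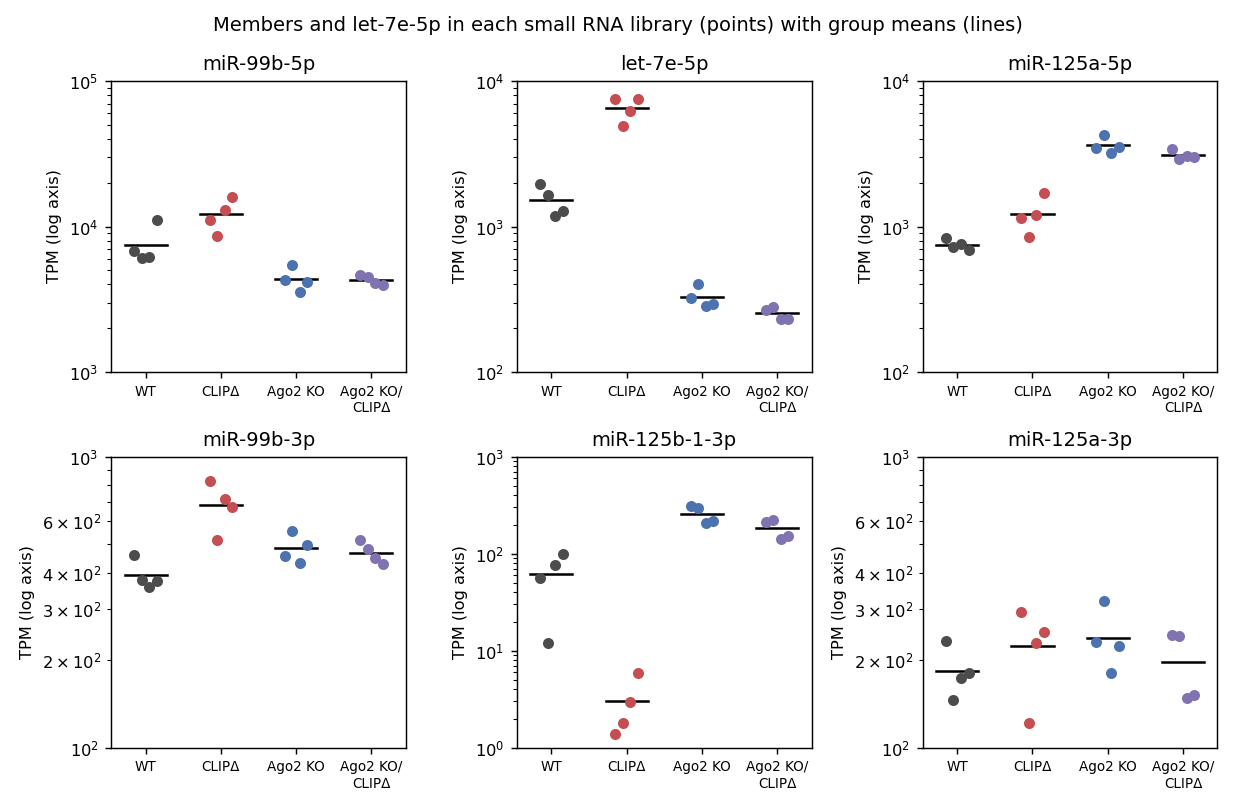
TPM (log axis) of the 5 members and of let-7e-5p in each library (points), with the group mean as a line. let-7e-5p lies between 4924 and 7534 TPM in CLIPΔ and between 232 and 400.4 TPM in the *Ago2* KO genotypes, while miR-125a-5p and miR-125b-1-3p are highest in the *Ago2* KO genotypes.

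In the CLIPΔ mESCs let-7e-5p rose, and of its 4 neighbours on chromosome 17, miR-99b-3p and miR-125a-5p passed the test as higher while miR-99b-5p and miR-125a-3p did not. let-7e-5p stood at 1968, 1647, 1182 and 1270 TPM in WT libraries A to D and at 7534, 4924, 6261 and 7510 TPM in CLIPΔ libraries A to D. Every CLIPΔ library was above every WT library, and the means differed 4.32-fold, a log2 difference of 2.12 (SE 0.22, limma adjusted p = 1.56e-04). Its passenger arm let-7e-3p, which is below the filter on low values, went from 23.1 to 80.2 TPM on average, a log2 difference of 1.87 (adjusted p = 0.00223 when limma was run on all 507 miRNAs).

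miR-99b-5p, the main arm of its hairpin, had 6768, 6037, 6132 and 11018 TPM in WT libraries A to D and 11137, 8645, 12926 and 15997 TPM in CLIPΔ libraries A to D. WT libraries A to C were below every CLIPΔ library, but WT library D lay above the CLIPΔ library B. The means differed 1.63-fold, a log2 difference of 0.71 (SE 0.25) that did not pass (limma adjusted p = 0.0595). With the library letter as a block it passed (adjusted p = 0.00109), and without WT library D the log2 difference was 0.91 (adjusted p = 0.00832). That fit kept CLIPΔ library D, the highest of its group, although libraries of the same letter deviated together (r = 0.744 for D). Its difference may thus be too large. Without CLIPΔ library B it was 0.87 (adjusted p = 0.0275).

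miR-99b-3p, from the other arm, had 458.5, 377, 356 and 375 TPM in the WT and 825, 519, 718 and 673 TPM in CLIPΔ libraries A to D. It rose 1.75-fold with no overlap between the groups, a log2 difference of 0.79 (SE 0.19, limma adjusted p = 0.0115). miR-125a-5p had 832, 727, 756 and 690.1 TPM in the WT and 1149, 849, 1199 and 1695 TPM in CLIPΔ. It rose 1.63-fold without overlap, a log2 difference of 0.66 (SE 0.22, limma adjusted p = 0.0477). This call held without CLIPΔ library B (adjusted p = 0.0112) and was lost when any 1 of the other 7 libraries was left out, with adjusted p up to 0.111. miR-125a-3p, at 146 to 232 TPM in the WT and 121 to 292 TPM in CLIPΔ, overlapped between the groups (log2 difference 0.23, SE 0.28, limma adjusted p = 0.581).

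Of the 4 members past the filter, 2 passed the test, and both were higher in CLIPΔ. Among all 227 miRNAs tested, 27.8% passed (63, or 125 with the letter as a block) and 19.4% passed and were higher in CLIPΔ. The median log2 difference was 0.69 for the 4 members, 3.91 for the 6 let-7 and miR-98 sequences tested, all of which rose, and 0.04 for all 227. From the highest difference down, miR-99b-3p ranked 39, miR-99b-5p 42 and miR-125a-5p 51, while let-7e-5p ranked 7. Setting each library's median log2 value to the same level shifted all differences by -0.20. After that shift miR-99b-3p was at 0.59 (adjusted p = 0.0586) and miR-125a-5p at 0.46 (adjusted p = 0.185), so neither passed, while let-7e-5p was at 1.92 (adjusted p = 1.99e-04). The split of all calls moved from 44 higher and 19 lower to 32 higher and 28 lower. In the RNA-seq, the 8 listed early lineage markers summed to 119 to 138 TPM in CLIPΔ and 100.1 to 115 TPM in the WT, and the 7 pluripotency markers to 5650 to 5874 TPM and 6236 to 6999 TPM (2 libraries each, no overlap). The higher lineage sum came mainly from *Nes*, with means of 102.9 TPM in CLIPΔ and 69.8 TPM in the WT. *Otx2*, *T*, *Gata4*, *Sox17* and *Foxa2* were lower on average in CLIPΔ, and *Pax6* and *Gata6* differed little. Of the pluripotency markers, *Nanog* and *Tfcp2l1* were higher on average in CLIPΔ and the others lower. The sums thus do not show a shared direction of either list. The part of these markers in the differences of the members was not tested.

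**Figure D2:**
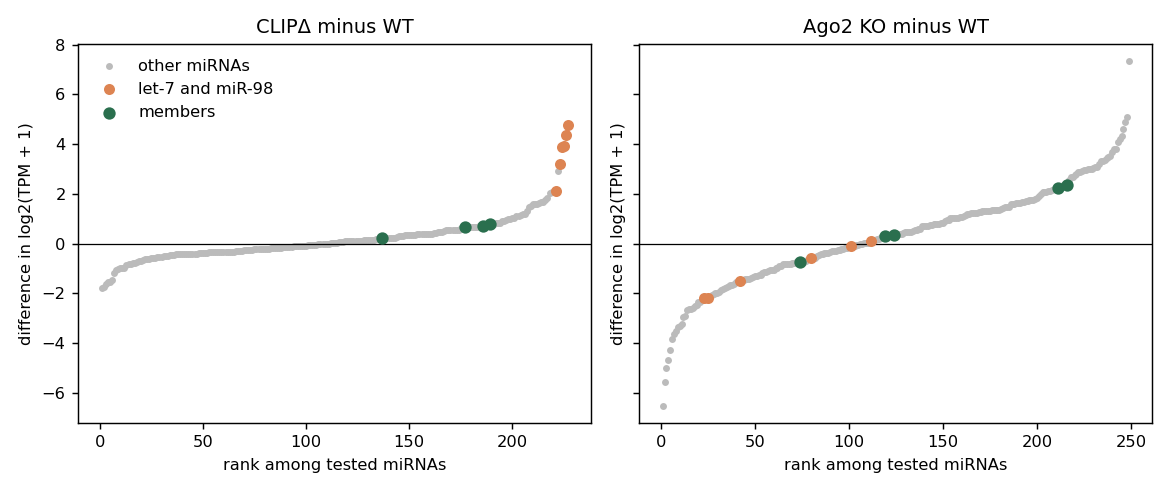
Differences in log2(TPM + 1) of all tested miRNAs against their rank, for CLIPΔ minus WT (left) and *Ago2* KO minus WT (right), with members in green and let-7 and miR-98 in orange. On the left the 4 members tested lie between 0.23 and 0.79 and the let-7 sequences between 2.12 and 4.79, and on the right the 5 members lie between -0.75 and 2.37.

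Within the cluster, the ratio of each 5p member to let-7e-5p fell in CLIPΔ. miR-99b-5p was 3.44, 3.67, 5.19 and 8.67 times let-7e-5p in WT libraries A to D and 1.48, 1.76, 2.06 and 2.13 times in CLIPΔ libraries A to D. The groups did not overlap, and the log2 ratio fell by 1.41 (two-sided exact permutation test, p = 0.0286, the smallest that 4 libraries against 4 allow, and 0.0429 adjusted over the 6 ratio tests). Without WT library D it fell by 1.13.

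miR-125a-5p was 0.423, 0.442, 0.640 and 0.543 times let-7e-5p in the WT and 0.153, 0.173, 0.191 and 0.226 times in CLIPΔ. This log2 ratio fell by 1.46, again without overlap (exact permutation test, p = 0.0286, adjusted p = 0.0429). The ratio of miR-99b-5p to miR-125a-5p was 10.1 ± 3.89 in the WT and 10.02 ± 0.592 in CLIPΔ (SD, n = 4 each), a log2 difference of 0.05 (exact permutation test, p = 0.971, adjusted p = 0.971). WT library D was at 15.97 and the other WT libraries at 8.11 to 8.30, and without it the log2 difference was 0.29 (exact permutation test, adjusted p = 0.0343). The fall of both members against let-7e-5p passed with and without it. Paired by letter, 4 pairs cannot pass an exact test, and the adjusted p of both falls was then 0.1875.

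**Figure D3:**
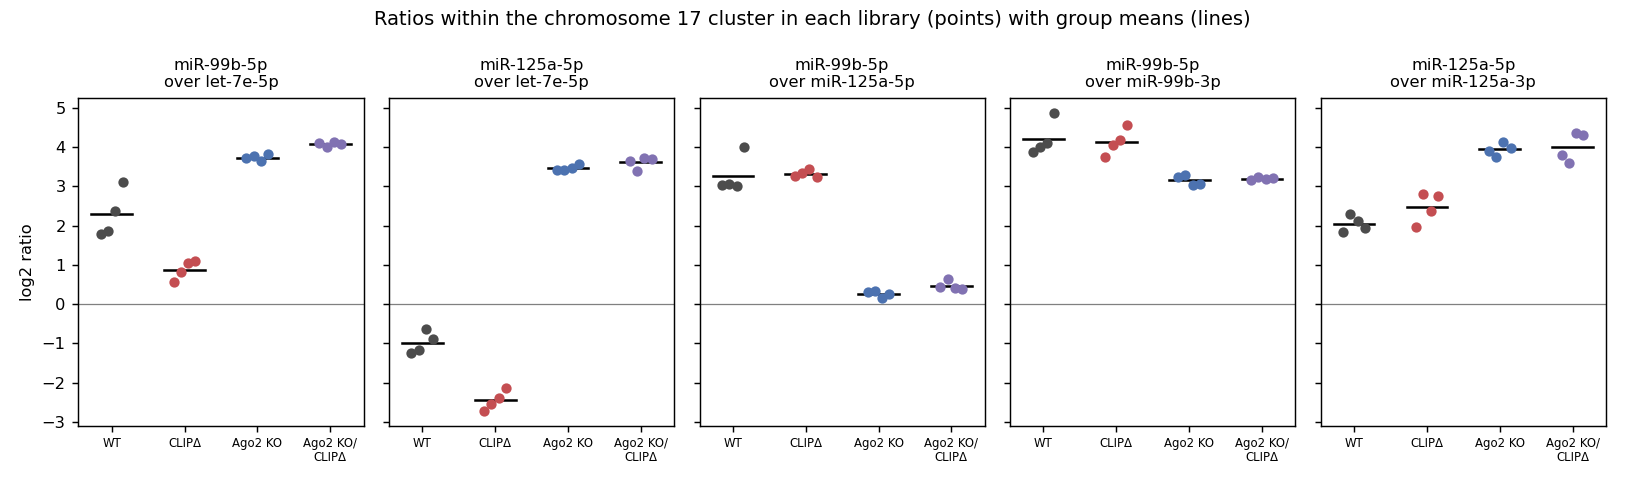
Log2 ratios within the chromosome 17 cluster in each library (points), with group means as lines. The first 2 panels set the 5p members against let-7e-5p and show the lowest ratios in CLIPΔ, and the last 2 set the 5p arm of each hairpin against its 3p arm, where WT and CLIPΔ overlap and the *Ago2* KO genotypes lie lower for miR-99b and higher for miR-125a.

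miR-125b-1-3p, the member of the chromosome 9 cluster, went the other way from let-7. It stood at 56.7, 12.0, 75.7 and 100.3 TPM in WT libraries A to D and at 1.37, 1.81, 2.98 and 5.86 TPM in CLIPΔ libraries A to D. These CLIPΔ values rest on 9, 14, 21 and 18 inferred reads, against 98 to 531 in the WT. Every CLIPΔ library was below the lowest WT library, and the mean was 20.4-fold lower. The miRNA is below the filter on low values in these 8 libraries. When limma was run on all 507 miRNAs, its log2 difference of -3.74 (SE 0.59, adjusted p = 9.62e-04) was the lowest of all, and an exact permutation test gave p = 0.0286. let-7a-5p, whose sequence *Mirlet7a-2* shares with other loci, rose in the same fit by 2.50 on the log2 scale (limma adjusted p = 1.87e-04), from 5.78 to 36.8 TPM.

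In cells without *Ago2*, no member was higher after the loss of the Trim71 site. miR-99b-5p had 4307, 5441, 3566 and 4168 TPM in *Ago2* KO libraries 1 to 4 and 4622, 4521, 4069 and 3968 TPM in *Ago2* KO/CLIPΔ libraries 1 to 4. The groups overlapped, with a log2 difference of -0.01 (SE 0.11, limma adjusted p = 0.932). miR-99b-3p differed by -0.05 (SE 0.11, limma adjusted p = 0.716), and the sign of both small differences turned positive when *Ago2* KO library 2 was left out.

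miR-125a-5p had 3476, 4278, 3180 and 3510 TPM in *Ago2* KO and 3390, 2919, 3056 and 3014 TPM in *Ago2* KO/CLIPΔ libraries, a log2 difference of -0.22 (SE 0.10, limma adjusted p = 0.0708). It passed without *Ago2* KO library 3 (adjusted p = 0.0385) or *Ago2* KO/CLIPΔ library 1 (adjusted p = 0.0480). miR-125a-3p overlapped as well (log2 difference -0.29, limma adjusted p = 0.231, or 0.0477 with the library number as a block). miR-125b-1-3p had 309.5, 299, 206 and 215 TPM in *Ago2* KO and 213, 222, 143 and 152 TPM in *Ago2* KO/CLIPΔ. It fell by 0.50 on the log2 scale (SE 0.18, limma adjusted p = 0.0293) although the groups overlapped (exact permutation test, p = 0.143), and the call was lost without *Ago2* KO library 1 or 2 or *Ago2* KO/CLIPΔ library 3 or 4 (adjusted p = 0.0736 to 0.102), and in the fit to all 16 libraries (adjusted p = 0.516).

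Thus 1 of the 5 members passed, where 52.2% of the 232 miRNAs tested did. The early lineage markers summed to 53.0 to 60.1 TPM in *Ago2* KO/CLIPΔ and 44.2 to 50.8 TPM in *Ago2* KO, whose part was not tested either. *Nes* was the largest part of these sums, with means of 34.3 and 27.8 TPM. *Otx2* and *T* were also higher on average in *Ago2* KO/CLIPΔ, and the other listed lineage markers lower. The median log2 difference was -0.22 for the 5 members, -0.21 for the 5 let-7 and miR-98 sequences tested and -0.17 for all 232. let-7e-5p fell by 0.36 on the log2 scale (SE 0.13, limma adjusted p = 0.0280), a call that was lost without any 1 of the same 4 libraries (adjusted p = 0.0551 to 0.0823) and in the fit to all 16 libraries (adjusted p = 0.193). The ratio of miR-99b-5p to let-7e-5p rose from 13.4 ± 0.695 to 16.99 ± 0.556 (SD, n = 4 each) without overlap, a log2 difference of 0.35 (exact permutation test, p = 0.0286, adjusted p = 0.0429). The ratio of miR-125a-5p to let-7e-5p overlapped (11.1 ± 0.555 and 12.3 ± 1.24, SD, n = 4 each, exact permutation test, p = 0.143, adjusted p = 0.171). The ratio of miR-99b-5p to miR-125a-5p rose from 1.20 ± 0.0657 to 1.39 ± 0.107 (SD, n = 4 each), a log2 difference of 0.20 (exact permutation test, p = 0.0286, adjusted p = 0.0429). Both rises missed the threshold without *Ago2* KO library 3 or *Ago2* KO/CLIPΔ library 2 (adjusted p = 0.0571 to 0.0857), and when paired by number (adjusted p = 0.1875).

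The difference between CLIPΔ and its control was tested against the same difference in cells without *Ago2*, in 1 limma model of all 16 libraries. For 3 of the 4 chromosome 17 members this interaction passed, where 49.4% of 249 tested miRNAs did. It was -0.84 for miR-99b-3p (SE 0.21, adjusted p = 0.00338), -0.88 for miR-125a-5p (SE 0.24, adjusted p = 0.00593) and -0.72 for miR-99b-5p (SE 0.29, adjusted p = 0.0475). The call for miR-99b-5p was lost in 13 of the 16 fits without 1 library (all but WT D, CLIPΔ B and *Ago2* KO 3) and after median centring (adjusted p = 0.159). For let-7e-5p it was -2.48 (SE 0.26, adjusted p = 1.66e-06). miR-125b-1-3p reaches the filter over 16 libraries through the *Ago2* KO genotypes, where it is high, so the fit to all 507 miRNAs was used for it. Its interaction there was 3.25 (limma adjusted p = 6.35e-04). The size depends on the pseudocount. A pseudocount of 10 was run only with the filter, where it gave 1.77 beside 3.25 at a pseudocount of 1. miR-125a-3p did not pass (-0.52, SE 0.37, adjusted p = 0.278), except without CLIPΔ library B (-0.78, adjusted p = 0.0439).

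Between *Ago2* KO and WT, the arms of the chromosome 17 cluster differed in opposite directions. let-7e-5p was 4.64-fold lower in *Ago2* KO (log2 difference -2.19, SE 0.18, limma adjusted p = 6.34e-09), and miR-99b-5p was 1.71-fold lower (log2 difference -0.75, SE 0.20, adjusted p = 0.00274, and -0.55 with adjusted p = 0.00950 without WT library D). miR-125a-5p was 4.81-fold higher (log2 difference 2.26, SE 0.17, limma adjusted p = 1.67e-09), with 3180 to 4278 TPM in *Ago2* KO against 690.1 to 832 TPM in the WT. In each of these 3 miRNAs the 4 *Ago2* KO libraries lay apart from the 4 WT libraries. The fall of let-7e-5p was not shared by all of let-7. Of the 6 let-7 and miR-98 sequences tested, 3 passed as lower. let-7g-5p (log2 difference -0.11, limma adjusted p = 0.762), let-7i-5p (0.11, adjusted p = 0.794) and miR-98-5p (-0.58, adjusted p = 0.161) did not pass. Neither 3p member passed, with 0.31 for miR-99b-3p (SE 0.15, adjusted p = 0.0657) and 0.37 for miR-125a-3p (SE 0.26, adjusted p = 0.203). Without WT library A, miR-99b-3p was at 0.39 (adjusted p = 0.0362).

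miR-125b-1-3p was 4.21-fold higher in *Ago2* KO than in the WT, with 206 to 309.5 TPM against 12.0 to 100.3 TPM (log2 difference 2.37, limma adjusted p = 1.47e-04 in the fit to all 507 miRNAs). Of the 4 chromosome 17 members 2 passed, beside 82.7% of 249 tested miRNAs in this comparison. Median centring shifted all differences by -0.26, after which miR-125a-5p was at 2.00 and miR-99b-5p at -1.01, and both passed. Depth and library set moved with this comparison. So did the summed level of 8 listed early lineage markers (of 10), at 100.1 to 115 TPM in the RNA-seq of the WT and 44.2 to 50.8 TPM in *Ago2* KO. The part of these in the result was not tested.

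**Figure D4:**
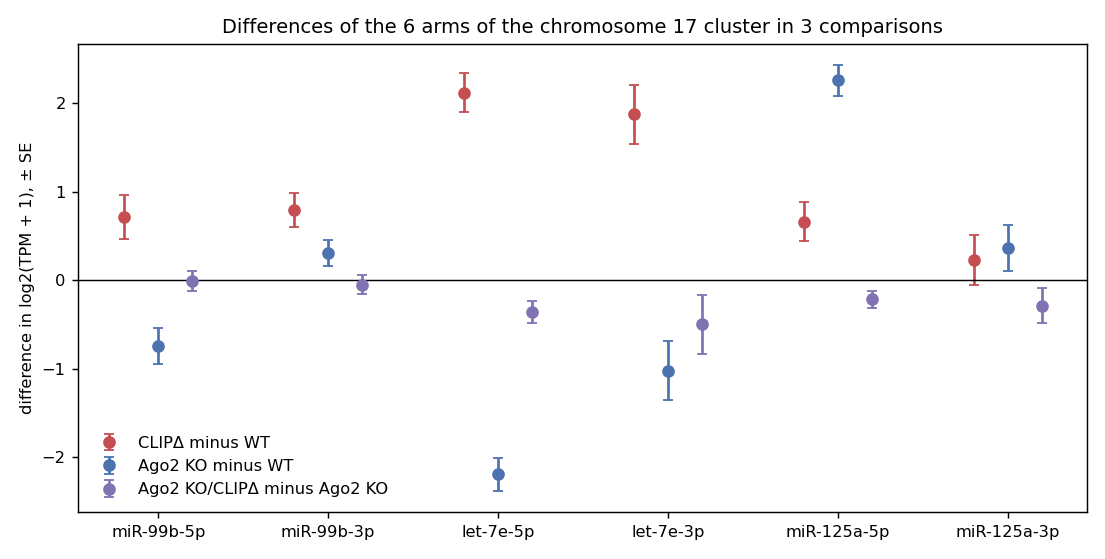
Differences in log2(TPM + 1) with SE for the 6 arms of the chromosome 17 cluster in 3 comparisons. In CLIPΔ minus WT all 6 are above 0 with let-7e-5p highest at 2.12, in *Ago2* KO minus WT they run from -2.19 (let-7e-5p) to 2.26 (miR-125a-5p), and in *Ago2* KO/CLIPΔ minus *Ago2* KO they lie between -0.50 and -0.01.

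The same opposite directions were seen when *Ago2* KO/CLIPΔ was set against CLIPΔ, a comparison that was added to the design and in which 83.1% of 249 tested miRNAs passed. let-7e-5p was 25.9-fold lower, miR-99b-5p 2.84-fold lower and miR-99b-3p 1.46-fold lower in *Ago2* KO/CLIPΔ, while miR-125a-5p was 2.53-fold higher (limma adjusted p = 0.00350 or less for each). miR-125b-1-3p was 60.8-fold higher, over a CLIPΔ mean of 3.01 TPM that rests on 9 to 21 inferred reads a library (limma adjusted p = 1.86e-09 in the fit to all 507 miRNAs). miR-125a-3p did not pass (log2 difference -0.15, adjusted p = 0.605).

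The balance of the 2 arms of a hairpin differed with the *Ago2* genotype in both member hairpins of chromosome 17. These arm ratios were also added to the design, and none was computed for hairpins outside the cluster. In *Ago2* KO minus WT, the arms of miR-151 also went apart (log2 differences -3.31 for 5p and 2.37 for 3p). Those of miR-183 went the same way (-1.05 for 5p and -0.80 for 3p). In that comparison 82.7% of 249 tested miRNAs passed, so the arm differences below cannot be called particular to these hairpins. miR-99b-5p was 19.3 ± 6.75 times miR-99b-3p in the WT and 8.96 ± 0.757 times in *Ago2* KO (SD, n = 4 each), without overlap. WT library D was at 29.4 and WT libraries A to C at 14.8 to 17.2, all above the highest *Ago2* KO library at 9.77. Without WT library D the log2 difference went from -1.06 to -0.84 (exact permutation test, p = 0.0286). miR-125a-5p was 4.18 ± 0.614 times miR-125a-3p in the WT and 15.5 ± 1.76 times in *Ago2* KO (SD, n = 4 each), again without overlap. Both differences had p = 0.0286 in an exact permutation test, or 0.0429 adjusted over the 18 added ratio tests. let-7e-5p over let-7e-3p fell too, from 73.3 ± 21.2 to 34.4 ± 11.8 (SD, n = 4 each, same exact p and adjusted p). let-7e-3p rests on only 10, 16, 8 and 5 inferred reads in *Ago2* KO libraries 1 to 4. The groups lay close, with the highest *Ago2* KO ratio at 51.4 and the lowest WT ratio at 54.9. Between CLIPΔ and WT neither arm ratio differed beyond the spread (exact permutation test, adjusted p = 0.743 for miR-99b and 0.158 for miR-125a).

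miR-351-5p, an X-linked miRNA with the seed of miR-125a-5p, was named after its seed was found to match. It was 88.6 ± 12.6 TPM in the WT, 105.4 ± 47.9 in CLIPΔ, 342 ± 52.1 in *Ago2* KO and 309.8 ± 25.4 in *Ago2* KO/CLIPΔ (SD, n = 4 each). It was 3.86-fold higher in *Ago2* KO than in the WT (limma adjusted p = 9.01e-06) and overlapped between WT and CLIPΔ. Between *Ago2* KO and WT 82.7% of 249 tested miRNAs passed, and miR-351-5p ranked 49 from the highest difference. It is below the filter in the WT and CLIPΔ libraries and reaches it through the *Ago2* KO genotypes, where it is high.

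Over the 16 libraries, the miRNAs whose log2 values were most like those of miR-99b-5p were sought among 244 others with a mean of at least 100. miR-1981-5p (Pearson r = 0.952), miR-106b-3p (0.951), miR-669c-5p (0.945), miR-25-3p (0.942) and miR-425-3p (0.940) came first. These coefficients describe libraries that fall into sets by genotype and depth. let-7e-5p, 94 bp from *Mir99b* by its hairpin, had r = 0.923, whereas miR-125a-5p of the same cluster had r = -0.643 with miR-99b-5p and -0.738 with let-7e-5p.

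The RNA-seq held the host gene of the chromosome 17 cluster. *Spaca6*, a gene of sperm and egg fusion, had 7.91 and 12.3 TPM in the WT libraries, 7.60 and 10.7 TPM in CLIPΔ, 4.87 to 6.45 TPM in *Ago2* KO and 2.96 to 8.25 TPM in *Ago2* KO/CLIPΔ. WT and CLIPΔ overlapped (log2 difference -0.12, limma adjusted p = 1.00), as did the *Ago2* KO genotypes (0.03, adjusted p = 0.961). Of a list of 9 host and neighbour genes of the 3 clusters 5 were in the table, *Spaca6*, *Btg3*, *Usp25*, *Cxadr* and *Ncam2*. None of the 4 and 3 tested in these comparisons passed. Of these genes only *Spaca6* lies over the hairpins of members, so the others do not test a host of a member. The list did not hold 3110039I08Rik, the host gene of miR-125b-1-3p, so that host was not tested.

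Known targets of the families were looked up in lists chosen from textbook knowledge. In CLIPΔ against WT, 0% of 11642 genes passed (0 by limma, 604 at an unadjusted p under 0.05), so none of the 9 tested targets of miR-125 or the 9 of miR-99 did. Their median log2 differences were -0.09 and 0.00, beside -0.05 for all genes, and none of 5 tested genes of let-7 maturation passed. *Lin28a*, which blocks let-7 maturation and is a target of both miR-125 and let-7, had 108 and 104 TPM in the WT and 44.6 and 72.1 TPM in CLIPΔ (log2 difference -0.88, limma adjusted p = 0.814). These groups did not overlap, but 2 libraries a group gave no call. *Lin28b* was at 0.881 and 0.667 TPM in the WT and at 0.296 and 0.319 TPM in CLIPΔ, under the filter of 1 TPM.

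In *Ago2* KO/CLIPΔ against *Ago2* KO, 3.22% of 10956 genes passed, or 353 genes, and 804 with the library number as a block. Of the 8 tested miR-125 targets 1 passed, *Bmf*, which encodes a pro-apoptotic protein and rose by 0.37 on the log2 scale (limma adjusted p = 0.0497). With the library number as a block none of the 8 passed. Of the 7 tested miR-99 targets, *Mtor* among them at 0.04, none passed. Genes whose longest 3′UTR held CTCAGGGA, the complement of the miR-125 seed followed by A, and no let-7 site CTACCTCA, were 589 of 11178 genes (5.27%) in the WT and CLIPΔ comparison. Their median log2 difference was -0.06, and that of all genes with a 3′UTR was -0.05. The miR-99 site, TACGGGTA, again without a let-7 site, was in 24 genes (0.215%), with a median of -0.05. In the cells without *Ago2* the medians were -0.03 for miR-125 and -0.11 for miR-99 (557 and 22 genes), beside -0.05. Only the transcript strand of the 3′UTRs was searched.

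Trim71 CLIP-seq, in which RNA bound by FLAG-tagged Trim71 in mESCs was sequenced, gave no peak within 100000 nt, on the plus strand, of the chromosome 17 or the chromosome 9 cluster among the 498 deposited peaks. The third cluster of this kind, with *Mir99a*, *Mirlet7c-1* and *Mir125b-2* on chromosome 16, lies in *Mir99ahg*. An intron of this host held 1 peak of 1402 reads at chr16:77512473-77512479, 86457 nt upstream of *Mir99a*, which ranks 338 of 498 by reads. The list holds peaks found in both replicates, with no value for either alone.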

How the data were processed

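Small RNA-seq (16 libraries), RNA-seq (12) and 1 list of Trim71 CLIP-seq peaks were used. Both sequencing tables were deposited in TPM, which the authors made with HISAT2 (mm10) and HTSeq counts, and they hold no value of 0 for a miRNA. The CLIP-seq peaks, called with CLIPper, were deposited with read counts, for which the library is not named. Code d3 in the column names was read as CLIPΔ, the genotype left over. The WT and CLIPΔ small RNA columns carry letters and were matched to a genotype, not to a single sample.

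miRNA values were rescaled to 1000000 per library and tested on the log2(TPM + 1) scale, where changes of low values are understated, with limma 3.58.1 (R 4.3.3, trend) and Benjamini–Hochberg adjustment (threshold 0.05), for means of at least 100 (miRNAs) or 1 TPM (genes). CLIPΔ against WT and *Ago2* KO/CLIPΔ against *Ago2* KO were fitted on their own 8 libraries, the others on 16. Ratios used two-sided exact permutation tests (Python 3.11.15). Reads were inferred from value times mature length minus 1 nt, which in each library was a multiple of 1 step (within 0.02) for at least 99.1% of values under 100 reads. RNA-seq depth is unknown.

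Same-lettered or same-numbered small RNA libraries deviated together (r = 0.348 to 0.744 across 227 miRNAs for letters, 0.158 to 0.517 across 232 for numbers), as did the numbered *Ago2* KO RNA-seq libraries (0.324 to 0.434), and this pairing comes from the data alone. Each lettered library correlated best with its own letter, but none of the 4 numbered small RNA pairs did (highest r with another number 0.185 to 0.603), and 1 of 4 in RNA-seq, so the numbers pair libraries only weakly. In tests on simulated data, limma recovered 80% of 2-fold and 95% of 4-fold changes for CLIPΔ against WT among 227 miRNAs, and 0% and 39% among 11642 genes. The simulated libraries varied independently, without deviations shared by letter. Changes under 2-fold, such as those of the chromosome 17 members in CLIPΔ, were not simulated, so these rates do not describe them. Named are all members, all let-7 and miR-98 sequences the text turns on, the 5 miRNAs most like the most abundant member, and genes of the lists. Members and lists were chosen with earlier results of these data known. The submitters' processing notes name CASAVA 1.4 and HISAT2 2.1.0. Gene annotation was GENCODE vM21 and sequences were from RefSeq on GRCm38.p6.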

Additional observations from a re-analysis of the deposited data

Results flagged for a closer look

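In WT library D, miR-99b-5p was 11018 TPM, and the other WT libraries were at 6037 to 6768 TPM. Its ratio to miR-125a-5p in that library was 15.97, and the others were at 8.11 to 8.30. These 2 of 36 groups of 4 libraries examined had a library far from the other 3, and chance gives about 1 in 20 such groups.

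The limma interaction of the loss of the Trim71 site with the *Ago2* genotype passed the threshold for 3 of the 4 chromosome 17 members and for let-7e-5p. Among all 249 miRNAs tested, 49.4% passed. For miR-99b-5p it passed in 3 of the 16 fits without 1 library, and not after median centring (limma adjusted p = 0.159). The interaction was -0.72 for miR-99b-5p, -0.84 for miR-99b-3p, -0.88 for miR-125a-5p, 3.25 for miR-125b-1-3p and -2.48 for let-7e-5p on the log2 scale. miR-125b-1-3p passed too, but it reaches the filter on low values only through the *Ago2* KO genotypes, so it is left out of the count.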

How the results depend on the processing

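For CLIPΔ against WT, the count of 63 miRNAs past the threshold was 115 in the fit to all 16 libraries, 123 with library weights, 125 with the letter as a replicate block, 136 without the filter and 19 for means of at least 1000. Without 1 library it was 48 to 70. For *Ago2* KO/CLIPΔ against *Ago2* KO the count of 121 was 55 in the fit to all libraries and 57 for means of at least 1000. For *Ago2* KO against WT the count of 206 was 78 for means of at least 1000 and 363 without the filter, for the interaction the count of 123 was 47 and 211, and for *Ago2* KO/CLIPΔ against CLIPΔ the count of 207 was 377 without the filter. The higher mean and the missing filter change how many miRNAs are tested. For the other settings that moved a count, the cause was not tested.

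In RNA-seq, CLIPΔ against WT gave 0 genes, 333 with the number as a replicate block (r = 0.716 for 2 pairs, which share only a number) and 0 to 186 without 1 library (42 without CLIPΔ library 1 and 186 without CLIPΔ library 2, where the lone library is assumed to vary like those of the WT). *Ago2* KO/CLIPΔ against *Ago2* KO gave 353 genes, 804 with the block and 130 to 259 without 1 library.

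Pairing libraries by letter or number left the 4 ratio differences that passed at -1.41, -1.46, 0.35 and 0.20, with 0.1875 as their adjusted p, and 4 pairs cannot pass an exact test. Among the members, the block brought miR-99b-5p (CLIPΔ against WT) and miR-125a-3p (*Ago2* KO/CLIPΔ against *Ago2* KO) past the threshold and changed no other call. Without 1 library, the log2 difference of the ratio of miR-99b-5p to miR-125a-5p ranged from -0.0347 to 0.29 for CLIPΔ against WT. In the cells without *Ago2* it ranged from 0.15 to 0.23, and for miR-99b-5p to let-7e-5p from 0.31 to 0.37. In those cells the difference of miR-99b-5p was 0.0499 with library weights and -0.10 to 0.10 without 1 library, and that of miR-99b-3p -0.10 to 0.0193. miR-125b-1-3p in CLIPΔ rests on 9 to 21 inferred reads a library, and RNA-seq of CLIPΔ and WT on 2 libraries each.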
